A study of Homo sapiens with 6 samples.

Results

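The genes of homologous recombination and DNA break repair were examined as a set of 43 genes, chosen by name, out of 58024 genes in the RNA-Seq table of C4-2B cells. The choice was made with earlier results of these data known, so its counts by direction may not be independent of them. All 43 were in the table and all passed the filter on low values, 0.1 FPKM or more on average across the 6 libraries, which left 24468 genes to be tested. FPKM counts the sequenced fragments of a gene relative to its transcript length and to the mapped fragments of its library, so that levels can be compared between genes of different length. C4-2B is a human prostate cancer line derived from LNCaP, and both groups came from this single line. The enzalutamide resistant cells were selected in rising enzalutamide, from 1 to 20 µM over at least 6 months, with the surviving cells pooled, and were then kept in 5 µM of the drug. The parental cells were kept with DMSO, the solvent, although the extraction protocol names 10 µM enzalutamide for resistant and parental cells together, so the parental exposure at harvest is not certain. Each group had 3 libraries, numbered 0, 1 and 2 in the labels. The labels do not say that the libraries came from separate cultures, so p-values measure the spread between these libraries only.

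Homologous recombination copies an intact sister chromatid to mend a double-strand break. The MRN complex senses the break, CtIP and helpers trim its ends, BRCA1 with BARD1, PALB2 and BRCA2 prepare the exposed strand, and RAD51B, RAD51C, RAD51D, XRCC2, XRCC3 and RAD54 help it to find and invade the partner. The Fanconi anaemia proteins open interstrand crosslinks and hand the break to the same machinery, the PARP enzymes and XRCC1 mend single-strand breaks, and Ku, DNA-PKcs and ligase IV join ends without a template. In prostate cancer several of these genes, BRCA2, ATM and CDK12 among them, are known for inactivating mutations.

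The set moved in both directions, with more genes higher than lower in the resistant cells. Of the 43 genes, 22 passed the test, limma with Benjamini-Hochberg adjustment over all genes tested at an adjusted p under 0.05, which is 51.2% of them. Over all genes tested 44.4% passed, and among 16382 genes averaging 1 FPKM or more 53.2% passed, so the share of repair genes that changed was near the background. The directions were less even. Higher in resistant cells were 17 repair genes, or 39.5%, against 22.1% of all genes tested and 24.9% of those at 1 FPKM or more. Lower were 5, or 11.6%, against 22.3% and 28.3%. The counts by role below are to be read beside these shares, and a role holds only 1 to 11 genes. One of the 17 is PARP2, which was listed at 0 in every parental library and is treated apart below. It passed the filter on low values through the resistant libraries alone. Without PARP2, 16 of 42 repair genes were higher, 5 were lower and 21 did not pass. The groups did not overlap for 26 repair genes, 60.5% of them, with 18 higher and 8 lower, where 54.8% of all genes tested did not overlap. PARP2, with its parental zeros, was counted among the 18. Changes of at least 2-fold were called in 4 of the 43, FANCL, BLM, XRCC1 and BRCA2, not counting PARP2, which has no fold change, while 28.5% of all genes tested passed the test with a change of that size. The median log2 fold change of the set, taken on log2(FPKM + 0.1) as resistant minus parental, was 0.10, against -0.05 over all genes tested.

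**Figure D1:**
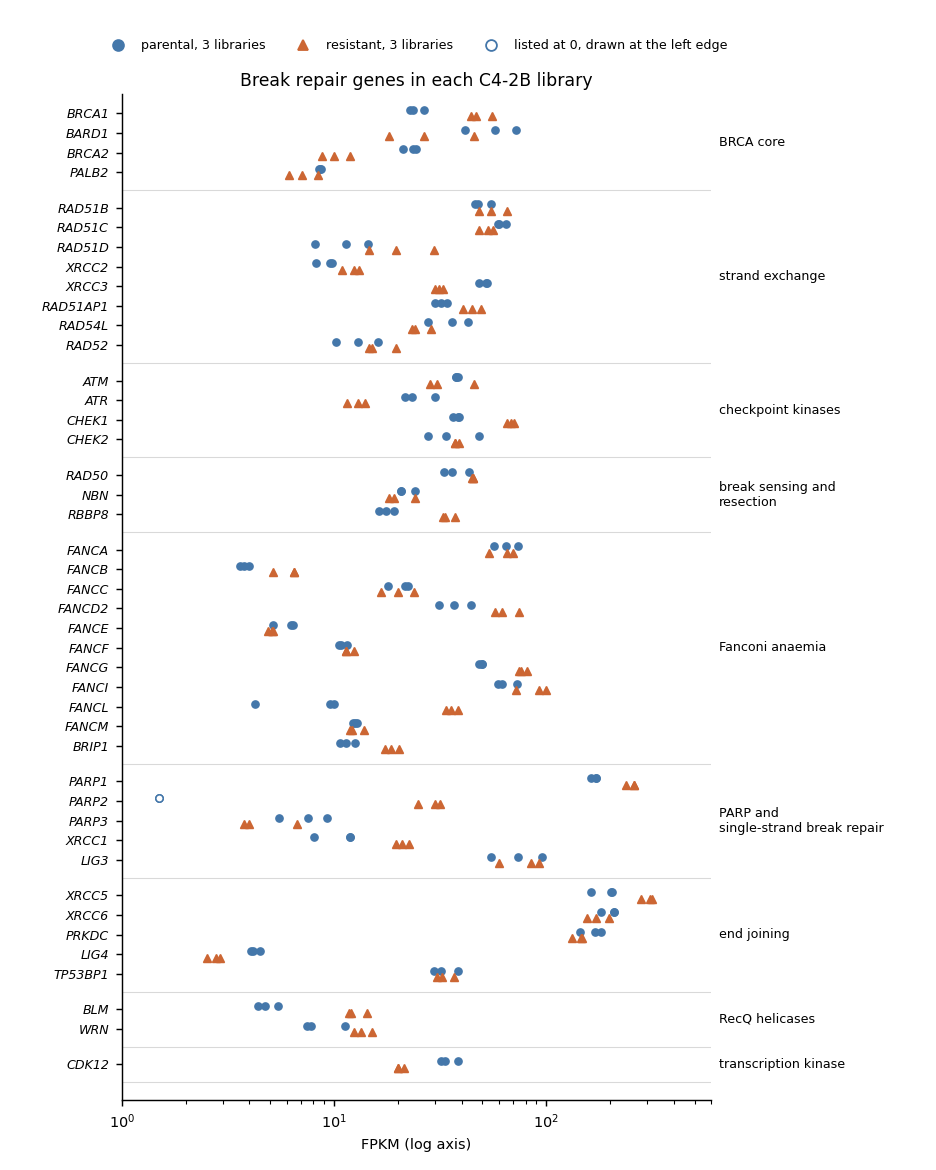
FPKM of each of the 43 break repair genes in the 6 libraries, on a log axis, with blue circles for the 3 parental and orange triangles for the 3 resistant libraries, grouped by role. The resistant triangles of BRCA1, CHEK1, FANCL and BLM lie to the right of every parental circle, those of BRCA2, ATR and CDK12 lie to the left, and the open circle of PARP2 marks its 3 parental zeros, drawn on top of each other.

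Summed FPKM ran from 792975 to 870110, and between 21956 and 27153 genes were above 0, with the most in resistant replicate 0. Only 45.6% to 58.2% of low values lay within 0.1 of a whole read, so reads were not recovered and the depth, about 1.33e+07 to 2.07e+07 reads, is a rough estimate. Of 10 luminal prostate markers all were measured, with a summed level of 4074 to 4824 FPKM in parental and 1418 to 1517 in resistant libraries, KLK3 being the largest part of the difference (log2 fold change -5.85, adjusted p 1.10e-06). The markers did not all fall. Of the 10, 6 were called lower and 2 higher, beside 22.3% lower and 22.1% higher over all genes tested. KRT8 was among the higher (log2 fold change 0.30, adjusted p 0.0466), and FOXA1 and HOXB13 did not pass. The 7 neuroendocrine markers summed to 7.07 to 11.3 FPKM in parental and 189 to 211 in resistant libraries, mostly through ENO2 and SYP. The 3 basal markers summed to under 1 FPKM in every library, the 5 leukocyte markers to at most 1.18, with CD3E at 0 throughout, and the 8 fibroblast and endothelial markers to between 7.79 and 13.9. The part of these shifts in the repair genes was not tested, and in bulk RNA fewer cells of a type and less RNA per cell cannot be told apart.

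BRCA1 and BRCA2, the tumour suppressors at the centre of the pathway, moved in opposite directions. Their start regions are printed here because each shares them with a gene on the other strand, so that the stretch between both start sites can be read as a whole. The sequences are from RefSeq, build GRCh38.p14, each written 5′ to 3′ on the strand of the repair gene and ending at the base before its start. BRCA1 lies on chromosome 17 from 43044295 to 43170245 on the minus strand, and its printed stretch, chr17:43125365-43125550, is the 186 bases between its canonical start and that of NBR2, a long noncoding RNA. BRCA2 lies on chromosome 13 from 32315086 to 32400268 on the plus strand, and its stretch, chr13:32315364-32315507, is the 144 bases between the canonical starts of ZAR1L and BRCA2. Capitals mark letters that match a motif searched, which was CCAAT in BRCA1 and, on the other strand, the ETS core CCGGAAGT in BRCA2.
BRCA1: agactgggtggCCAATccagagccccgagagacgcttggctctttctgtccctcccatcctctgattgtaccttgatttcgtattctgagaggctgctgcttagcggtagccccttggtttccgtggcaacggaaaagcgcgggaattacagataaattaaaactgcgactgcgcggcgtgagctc
BRCA2: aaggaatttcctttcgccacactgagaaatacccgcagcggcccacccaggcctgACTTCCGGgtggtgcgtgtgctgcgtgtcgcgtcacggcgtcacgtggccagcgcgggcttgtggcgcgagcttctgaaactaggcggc

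BRCA1, the ubiquitin ligase subunit that directs ends to recombination, was at 23.5, 22.9 and 26.6 FPKM in the parental and 44.4, 55.6 and 46.5 FPKM in the resistant libraries. Every resistant library was above every parental one. The log2 fold change was 1.00 (SE 0.11, adjusted p 7.68e-04). BRCA2, which acts on the resected single-stranded DNA, was at 21.2, 24.3 and 23.7 FPKM in parental and 11.8, 10.0 and 8.78 FPKM in resistant libraries. The groups were again apart, with a log2 fold change of -1.17 (SE 0.14, adjusted p 8.14e-04). The genes were thus at near equal FPKM in parental cells, and BRCA1 was several-fold above BRCA2 in resistant cells. Taken within each library, the ratio of BRCA1 to BRCA2 was 1.06 ± 0.099 (SD, n = 3) in parental and 4.87 ± 0.975 in resistant libraries. The pairs for this and the later ratios were chosen after their values were seen, so a gap between the groups is description only.

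PALB2, the bridge between BRCA1 and BRCA2, was at 8.57, 8.70 and 8.53 FPKM in parental and 6.15, 7.09 and 8.39 FPKM in resistant libraries. All resistant values were lower but the test was not passed (log2 fold change -0.26, SE 0.15, adjusted p 0.193). BARD1, the obligate partner of BRCA1, was at 56.9 ± 15.1 FPKM in parental and 30.1 ± 14.1 FPKM in resistant cells. Its libraries overlapped, and its log2 fold change of -0.98 (SE 0.36) did not pass (adjusted p 0.0681). Without resistant replicate 1 it did (log2 fold change -1.33, adjusted p 0.0194, in a range of 0.0194 to 0.184 over the alternatives). The ratio of BRCA1 to BARD1 was 0.456 ± 0.163 in parental and 1.80 ± 0.614 in resistant libraries, with no overlap. Of the BRCA core, therefore, 1 of 4 genes rose, 1 fell and 2 did not pass, where 22.1% of all genes tested rose and 22.3% fell.

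**Figure D2:**
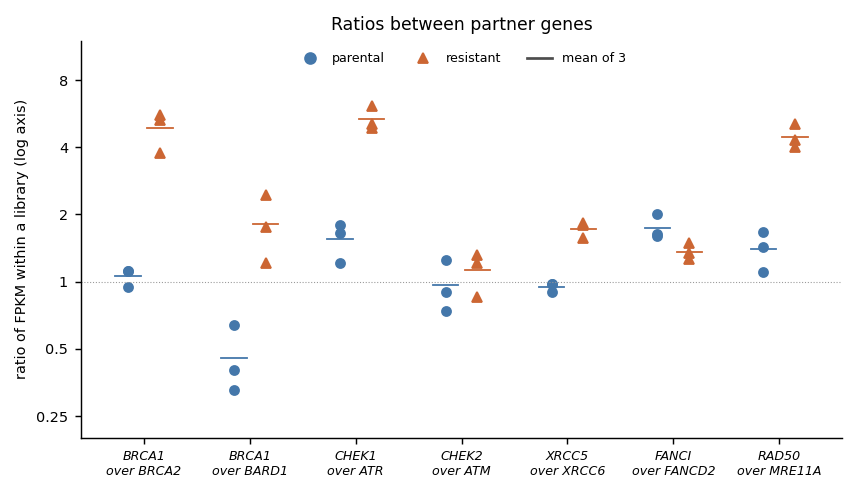
Ratio of FPKM between partner genes within each library, on a log axis, with blue circles for parental and orange triangles for resistant libraries and a line at the mean of 3. The ratio of BRCA1 to BRCA2 sits near 1 in parental and between 3.75 and 5.56 in resistant libraries, while that of CHEK2 to ATM overlaps between the groups.

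The genes within 2 Mb of each repair gene were counted, and the neighbourhoods described here were picked after their values were seen. Over the 43 windows the median log2 fold change of the neighbours ran from -1.02 around BRCA2 to 2.48 around FANCF, where it rested on 4 genes. Around BRCA2, 10 other protein-coding genes averaged 1 FPKM or more, and 8 of them fell while none rose, with a median log2 fold change of -1.02. On the log2 scale the largest decrease among them was in PDS5B, a cohesin regulator (-2.93), from 59.9 ± 8.07 to 7.84 ± 1.74 FPKM. HMGB1 (-1.12), HSPH1 (-2.46), FRY (-2.49), STARD13 (-1.81) and RFC3 (-0.62) also fell on the log2 scale, and B3GLCT (0.16) and N4BP2L1 (-0.30) did not pass. Over chromosome 13 the median log2 fold change of protein-coding genes at that level was -0.08. Around BRCA1, by contrast, 33 of 84 genes rose and 24 fell, with a median of -0.07. NBR2, which starts on the other side of the stretch printed above, fell from 9.18 ± 0.527 to 4.89 ± 0.245 FPKM (log2 fold change -0.89, adjusted p 0.0016), and NBR1, beyond it, rose by 0.38 on the log2 scale (adjusted p 0.0172). NBR1 and NBR2 share the locus field of BRCA1 in the table. The library kit keeps the strand, but it is not stated that the counting used it, so fragments from overlapping or antisense genes may be divided with error.

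**Figure D3:**
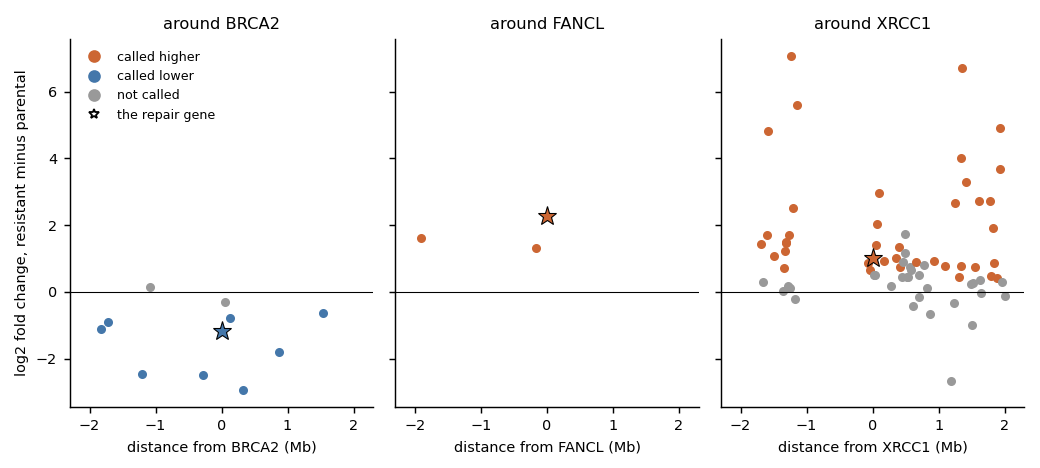
Log2 fold change, resistant minus parental, of protein-coding genes averaging 1 FPKM or more against their distance in Mb from BRCA2, FANCL and XRCC1, each drawn as a star. Around BRCA2 8 of 10 genes are called lower, around FANCL both are called higher, and around XRCC1 39 of 70 are called higher and none lower.

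Among the strand exchange genes, 2 of 8 rose, 1 fell and 5 did not pass, beside 22.1% higher and 22.3% lower over all genes tested. XRCC3, which acts late with RAD51C, fell from 51.0 ± 2.34 to 31.3 ± 1.24 FPKM (log2 fold change -0.70, SE 0.08, adjusted p 5.89e-04). RAD51AP1, which stimulates strand invasion, rose from 31.9 ± 2.01 to 44.8 ± 4.45 FPKM (log2 fold change 0.48, adjusted p 0.0090). XRCC2, a member of the BCDX2 complex, rose by 0.40 on the log2 scale with an adjusted p of 0.0442. That call was lost when any library other than resistant replicate 0 was left out, at adjusted p 0.0570 to 0.122, and the range over all alternatives was 0.0113 to 0.122. The other subunits of that complex were RAD51B at 49.6 ± 4.70 and 56.2 ± 8.77 FPKM, RAD51C at 61.3 ± 2.73 and 52.7 ± 3.96 FPKM and RAD51D at 11.3 ± 3.17 and 21.3 ± 7.70 FPKM, parental first.

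None of these 3 subunits passed. RAD51D had a log2 fold change of 0.88 (SE 0.31, adjusted p 0.0611) and shares its locus field with LIG3, RFFL and ZNF830. It passed without resistant replicate 0 (1.12, adjusted p 0.0402) and under 4 scalings, with adjusted p from 0.0208 to 0.157 over the alternatives. RAD52, the annealing protein (log2 fold change 0.33), and RAD54L, a translocase that acts after invasion (-0.47), did not pass either. RAD54L passed without parental replicate 0 (-0.64, adjusted p 0.0188), in a range of 0.0188 to 0.221. 

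The checkpoint kinases split within the pair that answers to replication stress. ATR, the kinase called to single-stranded DNA, was at 21.7, 30.0 and 23.3 FPKM in parental and 12.9, 11.6 and 14.1 FPKM in resistant libraries. All resistant libraries were lower, and the log2 fold change was -0.95 (SE 0.15, adjusted p 0.0030). CHEK1, the effector kinase that ATR phosphorylates, moved the other way, from 37.9 ± 1.36 to 68.2 ± 2.61 FPKM (log2 fold change 0.85, SE 0.07, adjusted p 2.07e-04). The ratio of CHEK1 to ATR was 1.55 ± 0.302 in parental and 5.35 ± 0.684 in resistant libraries.

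ATM, the kinase that answers to double-strand breaks, was at 37.7, 37.4 and 38.2 FPKM in parental and 45.5, 28.3 and 30.6 FPKM in resistant libraries. Resistant replicate 0 lay above the parental libraries and the other two lay below, and the test was not passed (log2 fold change -0.15, SE 0.18, adjusted p 0.529). Without resistant replicate 0 it was -0.36 (adjusted p 0.0231, range 0.0231 to 0.948). CHEK2, the effector of ATM, was at 36.5 ± 10.5 and 37.8 ± 1.00 FPKM (log2 fold change 0.09, adjusted p 0.747), and its ratio to ATM overlapped between the groups.

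Of the break sensing and resection genes, 1 of 3 rose, where 22.1% of all genes tested did. RBBP8, which encodes CtIP and starts resection, rose from 17.7 ± 1.51 to 34.3 ± 2.56 FPKM (log2 fold change 0.95, SE 0.10, adjusted p 5.96e-04). RAD50 (log2 fold change 0.27, adjusted p 0.0897) and NBN (-0.10, adjusted p 0.584), subunits of the MRN complex, did not pass. RAD50 passed without parental replicate 2 (0.38, adjusted p 0.0180) and under 3 scalings, in a range of 0.0180 to 0.204. The nuclease subunit of the complex, MRE11, is listed as MRE11A and is not among the 43 genes. It fell from 27.0 ± 2.60 to 10.2 ± 1.17 FPKM (log2 fold change -1.40, SE 0.13, adjusted p 3.03e-04). The ratio of RAD50 to MRE11A transcript levels was 1.40 ± 0.284 in parental and 4.47 ± 0.547 in resistant libraries.

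Of the 11 Fanconi anaemia genes, 6 rose, none fell and 5 did not pass, where 22.1% of all genes tested rose and 22.3% fell. The pathway has a core complex that acts as a ubiquitin ligase, the FANCI and FANCD2 pair that it modifies, and downstream helicases. FANCL, the catalytic subunit of the core complex, was at 9.55, 4.22 and 9.98 FPKM in parental and 33.8, 38.4 and 35.6 FPKM in resistant libraries. It had the largest change of the set with a fold change (log2 2.26, SE 0.33, adjusted p 0.0020), and parental replicate 1 was the lowest library by far. Without that library the log2 fold change was 1.87. FANCL lies on chromosome 2 from 58159243 to 58241410 on the minus strand and shares its locus field with VRK2, whose canonical transcript runs toward it and overlaps its last 625 bases. VRK2 rose from 8.20 ± 1.06 to 20.7 ± 2.00 FPKM (log2 fold change 1.33), and CCDC85A, the other gene measured within 2 Mb, rose by 1.62. Over chromosome 2 the median log2 fold change was 0.11.

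FANCG, a scaffold of the core complex, rose from 49.3 ± 0.778 to 77.0 ± 3.57 FPKM (log2 fold change 0.64, SE 0.07, adjusted p 5.21e-04). FANCB, which joins FANCL in the catalytic module, rose by 0.65 on the log2 scale from the low level of 3.78 ± 0.177 FPKM (adjusted p 0.0164). Its call was lost without parental replicate 0, resistant replicate 0 or resistant replicate 2, with adjusted p of 0.0503 to 0.0560 in a range of 0.0094 to 0.0560. The other core subunits did not pass, and their log2 fold changes were small: FANCA -0.05, FANCC -0.04, FANCE -0.23 and FANCF 0.10. FANCM, the helicase that anchors the complex on DNA, had a log2 fold change of 0.01.

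The pair that the core complex modifies rose together. FANCD2 went from 37.5 ± 6.64 to 64.6 ± 8.75 FPKM (log2 fold change 0.79, SE 0.16, adjusted p 0.0077), and FANCI from 64.7 ± 7.25 to 88.0 ± 14.0 FPKM (log2 fold change 0.44, SE 0.14, adjusted p 0.0481). The libraries of FANCI overlapped, and its call was lost without parental replicate 0 or 1 or resistant replicate 1 or 2, at adjusted p 0.114 to 0.142, in a range of 0.0040 to 0.142. BRIP1, the helicase that binds BRCA1 and is also known as FANCJ, rose from 11.6 ± 0.936 to 18.8 ± 1.48 FPKM (log2 fold change 0.70, SE 0.11, adjusted p 0.0031). Among 9 other genes of the pathway, 4 rose and none fell, including UBE2T, the ubiquitin-conjugating enzyme that works with FANCL (log2 fold change 1.02, adjusted p 0.0016), and USP1, the enzyme that removes the mark (0.48, adjusted p 0.0050).

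**Figure D4:**
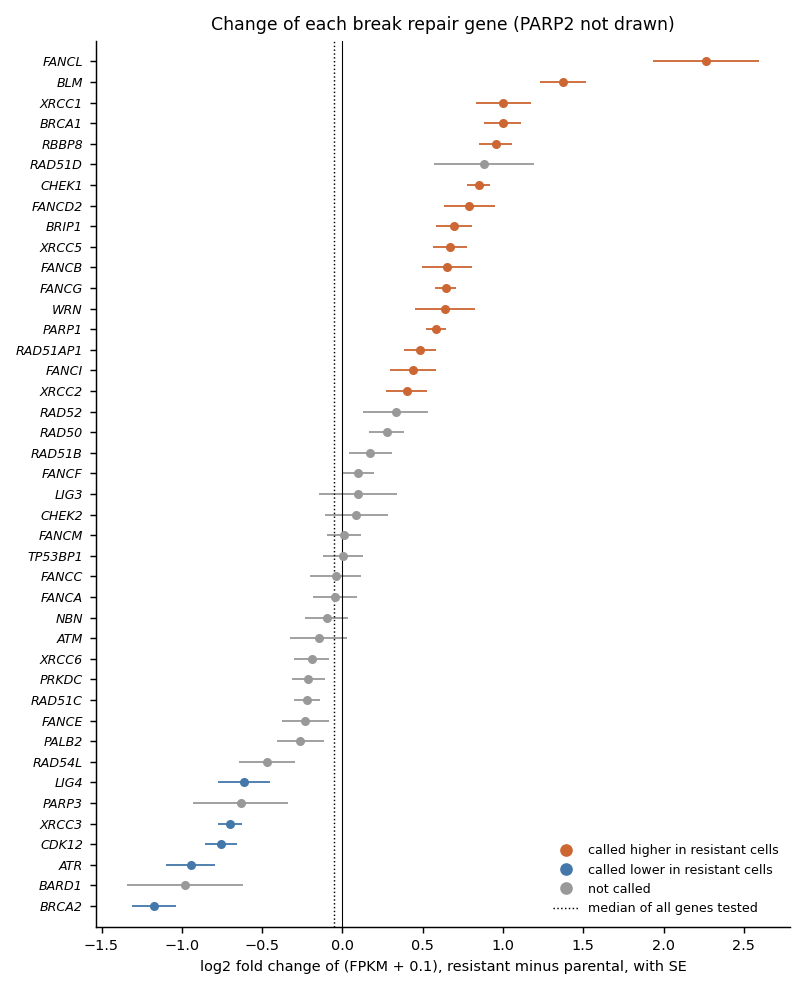
Log2 fold change with SE of 42 break repair genes, resistant minus parental, ordered by size, with orange for genes called higher, blue for genes called lower and grey for genes not called. FANCL at 2.26 and BRCA2 at -1.17 are at the ends, and the dotted line is the median of all genes tested, -0.05. PARP2 has no fold change and is not drawn.

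Of the 5 PARP and single-strand break repair genes, PARP1 and XRCC1 rose and none fell, beside 22.1% higher and 22.3% lower over all genes tested. PARP2, listed at 0 in parental libraries, is given after the others. PARP1, the main sensor of single-strand breaks and the principal target of PARP inhibitors, was at 162, 171 and 172 FPKM in parental and 238, 259 and 259 FPKM in resistant libraries. The groups were apart and the log2 fold change was 0.58 (SE 0.06, adjusted p 6.46e-04). XRCC1, the scaffold that PARP1 recruits, was at 11.9, 8.08 and 11.9 FPKM in parental and 22.5, 21.0 and 19.7 FPKM in resistant libraries. Every resistant library was higher, and the change was just past 2-fold (log2 fold change 1.00, SE 0.17, adjusted p 0.0042), where that of BRCA1 was just short of it. Genes around XRCC1 were mostly higher too, with 39 of the 70 measured within 2 Mb called higher, none called lower and a median log2 fold change of 0.76, while the median over chromosome 19 was -0.03. LIG3, the ligase bound to XRCC1, was at 55.2 to 95.8 FPKM in parental and 60.2 to 92.9 FPKM in resistant libraries, which overlapped (log2 fold change 0.10, adjusted p 0.775). PARP3 was at 7.43 ± 1.86 and 4.81 ± 1.66 FPKM (log2 fold change -0.63, adjusted p 0.128), and passed without resistant replicate 2 (-0.90, adjusted p 0.0461, range 0.0461 to 0.303).

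PARP2, which shares the work of PARP1 at single-strand breaks, was listed at 0 in all 3 parental libraries and at 31.7, 24.96 and 30.0 FPKM in the resistant libraries. An exact 0 can be an estimate that failed rather than an absent transcript, so no fold change is given, and its call (adjusted p 4.60e-06) only restates the zeros. It was the only one of the 43 genes at 0 in any library. PARP2 lies on chromosome 14 from 20343615 to 20357904 on the plus strand, back to back with RPPH1, the RNA subunit of RNase P, which every cell uses to process transfer RNA. The 250 bases before its canonical transcript start at 20343635, chr14:20343385-20343634, are printed from RefSeq GRCh38.p14 to show how close both genes lie. The 23 bases that belong to the RPPH1 ribozyme are in capitals, and 227 bases lie between the ribozyme and that start.
PARP2: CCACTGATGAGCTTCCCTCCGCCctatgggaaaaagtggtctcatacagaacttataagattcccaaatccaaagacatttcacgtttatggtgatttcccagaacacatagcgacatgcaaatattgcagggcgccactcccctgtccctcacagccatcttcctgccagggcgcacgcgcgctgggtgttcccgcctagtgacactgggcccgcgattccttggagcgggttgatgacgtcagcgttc

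The table holds RPPH1 under a pair of identifiers, and both share the locus field of PARP2. The entry that is not the ribozyme is annotated from 20343048 to 20343685 and so overlaps the first bases of PARP2. Both were listed at 0 in every parental library. In the resistant libraries the ribozyme entry was at 82169, 92787 and 95233 FPKM and the other entry at 2685, 3559 and 3216 FPKM. RP11-203M5.2, the fourth gene of the locus, was listed at 0 in all 6 libraries. Genes on either side with a locus of their own were measured in every library. CCNB1IP1 was at 41.4, 32.0 and 30.3 FPKM in parental and 71.2, 81.7 and 84.7 FPKM in resistant libraries (log2 fold change 1.20, adjusted p 7.94e-04). TEP1 was at 5.52, 6.26 and 7.39 FPKM in parental and 6.28, 6.84 and 7.66 FPKM in resistant libraries, and did not pass (0.12, adjusted p 0.575). In parental libraries the zeros thus covered every gene of the locus and neither neighbour. Over the table, 10 protein-coding genes were at 0 in all parental libraries and at 10 FPKM or more in every resistant library, and 0 genes showed the reverse.

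**Figure D5:**
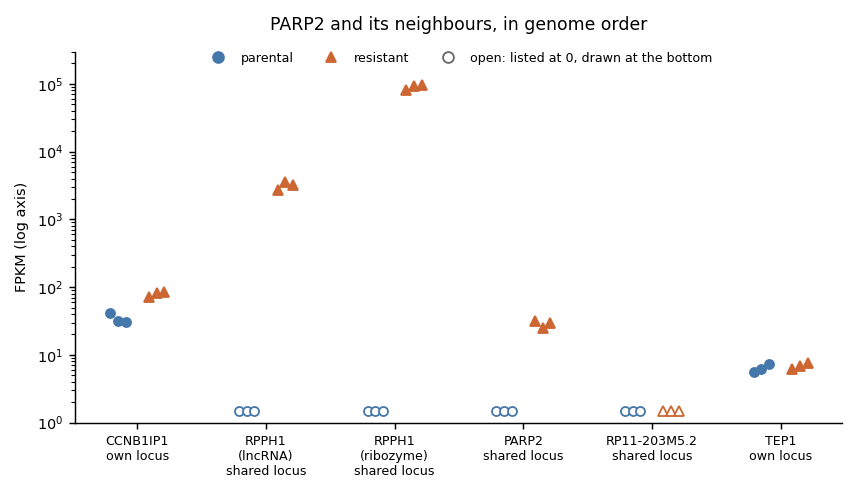
FPKM of PARP2 and its neighbours in genome order in the 6 libraries, on a log axis, with blue circles for parental and orange triangles for resistant libraries and open symbols for values listed at 0. Parental values are at 0 for every gene of the shared locus and above 0 for CCNB1IP1 and TEP1 on either side.

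For end joining, 1 of 5 genes rose, 1 fell and 3 did not pass, beside 22.1% higher and 22.3% lower over all genes tested. XRCC5 and XRCC6 encode Ku80 and Ku70, which act as a heterodimer on broken ends. XRCC5 rose from 190.0 ± 23.1 to 301.3 ± 18.3 FPKM (log2 fold change 0.67, SE 0.11, adjusted p 0.0029), and XRCC6 was at 199.5 ± 16.3 and 175.3 ± 21.0 FPKM (log2 fold change -0.19, adjusted p 0.204). The ratio of XRCC5 to XRCC6 was 0.950 ± 0.040 in parental libraries and 1.73 ± 0.144 in resistant libraries, with no overlap. PRKDC, the catalytic subunit of DNA-PK, was at 165.3 ± 18.99 and 142.2 ± 8.03 FPKM (log2 fold change -0.21, adjusted p 0.136), and it passed without parental replicate 1 (-0.30, adjusted p 0.0298, range 0.0298 to 0.981). LIG4, the ligase of this route, fell from 4.23 ± 0.220 to 2.73 ± 0.189 FPKM (log2 fold change -0.61, adjusted p 0.0212). It was lost without parental replicate 0, parental replicate 2 or resistant replicate 1, at adjusted p 0.0502 to 0.0626, in a range of 0.0116 to 0.191. TP53BP1, which holds back resection, was at 33.3 ± 4.55 and 33.3 ± 3.09 FPKM and had a log2 fold change of 0.00.

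Both RecQ helicases of the set rose, where 22.1% of all genes tested did. BLM, which dissolves double Holliday junctions and is mutated in Bloom syndrome, was at 4.74, 4.41 and 5.42 FPKM in parental and 11.8, 14.4 and 12.1 FPKM in resistant libraries. The resistant libraries were all higher, with a log2 fold change of 1.37 (SE 0.14, adjusted p 5.23e-04). WRN, the Werner syndrome helicase, rose from 8.82 ± 2.10 to 13.6 ± 1.37 FPKM (log2 fold change 0.64, adjusted p 0.0318). Leaving out parental replicate 1 kept that call and leaving out any other single library lost it, at adjusted p 0.0598 to 0.102, in a range of 0.0063 to 0.102. BLM lies on chromosome 15 from 90717346 to 90816166 on the plus strand. The 250 bases before its start, chr15:90717096-90717345, are printed from RefSeq GRCh38.p14 because they hold 3 matches to CCAAT, in capitals, of which 2 read ATTGG on this strand. That number was not particular to BLM. BRIP1, which rose, and CHEK2, which did not pass, also held 3 matches, and XRCC3, which fell, held 5.
BLM: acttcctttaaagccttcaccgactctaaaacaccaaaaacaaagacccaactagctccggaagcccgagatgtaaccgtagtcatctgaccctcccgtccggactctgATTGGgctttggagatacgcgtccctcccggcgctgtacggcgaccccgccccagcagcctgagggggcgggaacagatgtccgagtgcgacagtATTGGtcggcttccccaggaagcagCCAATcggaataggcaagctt

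Motifs for E2F, CCAAT-binding, cell cycle and ETS factors were searched on both strands in the 250 bases before the start of each gene with a RefSeq window, which 38 of the 43 genes had. The E2F letters TTTCCCGC, TTTCGCGC, TTTGCCGC or TTTGGCGC were in 2 of the 38, FANCA and FANCC, neither of which passed the expression test, and in 2.86% of 27305 promoters. The CCAAT letters were in 17 of the 38 and in 33.1% of all promoters. Among the 14 genes with a window that were called higher, PARP2 counted with them, they were in 6, and among the 5 that fell in 2. The cell cycle letters TTTGAA or TTCGAA were in 5 of the 38 and in 14.3% of all promoters. The ETS letters CCGGAAGT were in 4 of the 38, BRCA2, FANCD2, PALB2 and RAD50, and in 3.72% of all promoters. The motifs share no letters that would make one a match of another, and a match here describes letters, not a bound site.

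CDK12, the kinase of RNA polymerase II that sustains transcription of long repair genes, was at 32.1, 33.4 and 38.4 FPKM in parental and 19.9, 20.0 and 21.3 FPKM in resistant libraries. All resistant libraries were lower, with a log2 fold change of -0.76 (SE 0.10, adjusted p 0.0012). Of genes commonly named with it, BRCA1 and FANCD2 were higher, ATR and BRCA2 were lower, and ATM did not pass. The part of CDK12 in the levels of these genes was not tested.

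Beyond the 43 genes, lists of other repair genes held 100 genes in the table and 98 of them were tested. Of these 35 rose, or 35.7%, and 17 fell, or 17.3%. Over all genes tested 22.1% rose and 22.3% fell, and the counts of each list are to be read beside these shares. In other homologous recombination genes 14 of 37 tested rose and 7 fell. MCM8, a helicase of late recombination, rose (log2 fold change 1.02), and SHFM1, the small partner of BRCA2 also called DSS1, fell with MRE11A (-0.68). DMC1, a meiotic recombination gene, was named after its values were seen. It was at 1.39 ± 1.01 FPKM in parental and 21.3 ± 1.70 FPKM in resistant cells (log2 fold change 4.06, SE 0.47, adjusted p 7.92e-04). In other break signalling and end joining genes 9 of 26 rose and 5 fell. MAD2L2, the shieldin subunit REV7, rose by 1.24 and WEE1, a kinase that restrains entry into mitosis, by 0.79 on the log2 scale. CDKN1A, a brake on the cell cycle, fell from 82.9 ± 7.63 to 29.6 ± 1.43 FPKM (log2 fold change -1.48, adjusted p 6.90e-05).

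In other single-strand break and base excision repair genes 4 of 19 rose and 3 fell, where 22.1% of all genes tested rose and 22.3% fell. LIG1, the replicative ligase, rose by 1.90 and UNG, which removes uracil, by 1.30 on the log2 scale, while the glycosylases NEIL2 (-1.92) and OGG1 (-0.62) fell. In mismatch repair 4 of 7 genes rose, PMS1 by 0.44 among them, and 2 fell, MSH3 (-1.18) and MLH3 (-0.97), all on the log2 scale. 

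Many of the 43 genes are expressed in S phase, so a list of 33 genes of S phase and proliferation was set beside them. In that list 17 rose, 7 fell and 9 did not pass, with a median log2 fold change of 0.32. Over all genes tested 22.1% rose and 22.3% fell, with a median of -0.05. E2F2 rose by 2.24, MCM7 by 1.10, PCNA by 1.07 and MKI67 by 0.32 on the log2 scale, and MCM2 did not pass (0.03, adjusted p 0.805). CDK1 fell from 311.5 ± 7.35 to 108.3 ± 3.15 FPKM (log2 fold change -1.52), and AURKA, a mitotic kinase, fell by 0.98. The part of these genes in the changes of the repair genes was not tested.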

How the data were processed

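Total RNA of the 6 libraries was prepared with a stranded TruSeq kit and sequenced as 50 bp reads. According to the study's methods, the authors used TrimGalore 0.4.3 for trimming, STAR 2.5.3 for alignment to human GRCh38 with GENCODE 25, and Cufflinks 2.2.1 to estimate FPKM per gene. The deposited table holds 1 column per library and names no unit, and its values were read as those FPKM, with any scaling between libraries not stated. The submitters' processing notes name mm10, Trimmomatic 0.27 and FastQC 0.10.1 instead, whereas the identifiers and loci of the table are human. Here, log2(FPKM + 0.1) of genes at 0.1 FPKM or more on average was fitted with limma 3.58.1 in R 4.3.3, with a mean-variance trend and group as the only term, two-sided, with Benjamini-Hochberg adjustment over all 24468 genes at 0.05. An exact permutation test of 3 against 3 libraries cannot go below 0.1, so ratios within a library, whose pairs were chosen after their values were seen, are given without a test. Coordinates are from GENCODE 44 on GRCh38, matched by gene identifier, and sequences from RefSeq, which has no window for WRN, XRCC5, PRKDC, FANCI and NBN. The 43 genes and the other lists were chosen with earlier results of these data known. Values per library are given for genes called at 2-fold or more, at 0 in a library, or fixed by name (BRCA1, BRCA2, PALB2, ATM, ATR, CDK12, PARP1 and PARP2), and each other list is represented by the 2 genes of lowest adjusted p that rose and the 2 that fell, beside MRE11A, PCNA, MKI67, MCM2 and KLK3. Alternatives changed the pseudocount, filter, scaling, trend, block, threshold and the libraries used. Some genes named by this rule are not reported here.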

Additional observations from a re-analysis of the deposited data

How the results depend on the processing

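The 16 called repair genes that passed under all 16 alternative fits were ATR, BLM, BRCA1, BRCA2, BRIP1, CDK12, CHEK1, FANCD2, FANCG, FANCL, PARP1, RAD51AP1, RBBP8, XRCC1, XRCC3 and XRCC5, and no called gene with a fold change reversed. The 5 whose call was lost in at least 1 fit were FANCB, FANCI, LIG4, WRN and XRCC2. Leaving out 1 library at a time gave 13 to 16 repair genes higher, 4 to 6 lower, and 9303 to 10190 genes called in all. At an adjusted p under 0.01, 32 genes of the other repair lists were called, against 52. With a change of at least 2-fold required, 4 repair genes were higher, PARP2 with no fold change among them, and 1 lower, and 18 genes of the other repair lists, 6 of the S phase list and 6979 of all genes were called, since fewer genes meet both conditions. Upper-quartile scaling moved the median log2 fold change of all genes from -0.05 to 0.14 and the share of calls that were higher from 49.7% to 61.8%, with 18 repair genes higher and 4 lower.

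Reversals were found only among repair genes that had not passed, and the cause was not tested. With median-ratio scaling the log2 fold change was 3.27e-05 for NBN, 0.053 for FANCA and 0.056 for FANCC, with upper-quartile scaling 0.058 for ATM, 0.11 for NBN, 0.16 for FANCA, 0.16 for FANCC and 0.017 for XRCC6, and with quantile normalization 0.082 for FANCA and 0.019 for FANCC. Leaving out 1 library, it ran from -0.094 to 0.30 for CHEK2, -0.14 to 0.064 for FANCA, -0.17 to 0.090 for FANCC, -0.058 to 0.054 for FANCM, -0.10 to 0.29 for LIG3 and -0.075 to 0.11 for TP53BP1.

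The labels do not say whether the replicate numbers pair the libraries. Deviations of same-numbered libraries correlated at -0.003 to 0.017 across genes, and those of differently numbered libraries at -0.026 to 0.020. No shared deviation was thus seen, but with 3 libraries per group this cannot decide whether they were paired. With the replicate number as a block, 16 repair genes were higher and 6 lower, and 9463 genes were called in all. The block lost XRCC2 (adjusted p 0.0544) and LIG4 (0.0623) and added RAD54L (0.0339) and PARP3 (0.0465). The number of reads behind each value is known only roughly, so no counting interval was computed.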
